A study of Mus musculus with 12 samples.

Results

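The 41 genes described here are targets of the transcription factor ATF4 and the cytosolic aminoacyl-tRNA synthetases, in sorted mouse natural killer (NK) cells. They were chosen by name, with earlier results of these data known, out of 55487 features in the deposited table. The set holds 9 stress regulators, 13 genes of amino acid synthesis and transport and 19 synthetases. All 41 were found and all 41 passed the filter on low values, which left 12364 genes for testing. Ddit3 also had a second row, with 0 reads in every library, which was not tested.

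RNA-seq was done on 12 libraries of NK cells from mice of the strain B6.129S4-Ifngtm3.1Lky/J with genotype mut/mut, in which yellow fluorescent protein (YFP) reports on the interferon gamma gene Ifng. The sample titles carry the tag HD IL-15, whose HD the labels do not spell out, and the series calls the cells IL-15 primed. The 3 groups of 4 libraries were unstimulated cells, cells stimulated for 6 hours with an antibody against the surface receptor NK1.1 and negative for the reporter (YFP-), and cells stimulated the same way and positive for it (YFP+). Each group holds the labels f2, m2, m3 and m4, and values by library are listed in that order. All 3 groups carry the reporter allele and the IL-15 tag, so no group lacks either. The labels give no age, do not say whether animals were pooled, and do not say that libraries of a group came from separate mice or cultures, so p-values measure the spread between these libraries, which may be technical.

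ATF4 is a transcription factor whose mRNA is translated preferentially when the initiation factor eIF2 is phosphorylated, as happens under amino acid shortage, misfolded protein in the endoplasmic reticulum and other stresses. Its targets include genes that make or import amino acids, genes that charge tRNAs with them, and regulators that feed back on the response. Aminoacyl-tRNA synthetases join each amino acid to its tRNAs and so supply translation. In activated NK cells and other lymphocytes, uptake of amino acids through transporters such as Slc7a5 with Slc3a2 is known to support growth and cytokine production.

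Sequencing depth was 32.1 to 54.2 M reads (M for mega) per library, and levels are given as CPM, the reads of a gene per M reads of its library. All 10 NK markers examined averaged above 1 CPM in each group, with sums of 10488 to 16882 CPM per library. The summed T cell markers stood at 513 to 582 CPM in unstimulated, 742 to 846 CPM in YFP- and 836 to 944 CPM in YFP+ libraries. Of the 10 markers in that sum, 5 averaged above 1 CPM in each group. Of the CD3 chains, which define T cells, Cd3e did not exceed 1.49 CPM, Cd3g was at 30.9 to 79.4, 24.4 to 41.7 and 11.7 to 31.9 CPM in that order of groups, and Cd3d at 14.2 to 25.9, 12.8 to 20.6 and 7.25 to 13.8 CPM, both highest in unstimulated m4. As Cd3g and Cd3d were not higher after stimulation, the higher T cell sums lay mainly in other markers of the list, whose values are not given here. Sums of B cell markers were 132 to 190, 174 to 324 and 57.3 to 168 CPM in the same order of groups, with Ms4a1 and Pax5 at 3 reads or fewer in every library. Of the 7 B cell markers, 2 averaged above 1 CPM in unstimulated and YFP- libraries and 1 in YFP+ libraries. Sums of myeloid markers were 56.8 to 67.4, 29.6 to 47.8 and 15.3 to 27.1 CPM, with Adgre1, S100a8, S100a9 and Fcgr1 at 3 reads or fewer throughout. Sums of markers of type 2 innate lymphoid and mast cells were 64.8 to 78.9, 73.1 to 115 and 34.3 to 61.0 CPM, and erythroid markers summed to at most 0.326 CPM. The part of such cells in the results below was not tested.

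Within each group, 1 library was low for most of the 41 genes. Unstimulated m4 was the lowest of its group for 34 of them, YFP- m3 for 35 and YFP+ m3 for 31. The same libraries were lowest for 39.8%, 55% and 40.8% of all genes tested. They also held the largest share of reads on ribosomal RNA (rRNA)-like features of their groups, at 35.3% in unstimulated m4, 30.3% in YFP- m3 and 29.8% in YFP+ m3, where the other libraries held 27.4 to 30.8%, 15.9 to 20.0% and 13.7 to 23.1%. The part of that share in their low values was not tested.

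After stimulation nearly every one of the 41 genes was more abundant, in cells with and without reporter signal. In YFP- libraries 39 were higher than in unstimulated libraries, 1 (Vars) was lower and 1 (Qars) was not called, by limma with a Benjamini-Hochberg adjusted p under 0.05. Of all genes tested, 30.2% were called higher and 20.9% lower in that comparison. In YFP+ libraries 36 were higher, Vars was again lower, and 4 (Slc38a2, Dars, Kars and Qars) were not called, where 27.5% of all genes were called higher and 33.3% lower. The median log2 change of the 41 genes was 1.82 in YFP- and 2.06 in YFP+, beside 0.14 and -0.03 for all genes tested. The 4 unstimulated and 4 stimulated values did not overlap for 39 of the 41 genes in YFP- and for 35 in YFP+. The share of all genes tested without such overlap was not computed. Statements of no overlap here and below therefore describe the values and have no background beside them. In bulk RNA, a different number of cells expressing a gene and a different amount of its RNA per cell cannot be told apart. Both comparisons use the same unstimulated libraries. As the genes were chosen with earlier results of these data known, their counts beside the shares of all genes are a description and not a test.

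All classes took a larger share of the RNA after stimulation. Summed over the 9 stress regulators, the level was 239 ± 30.6 CPM (SD, n = 4) in unstimulated, 690 ± 87.2 CPM in YFP- and 872 ± 165 CPM in YFP+ libraries. For the 13 genes of amino acid synthesis and transport the sums were 908 ± 185, 4059 ± 427 and 4910 ± 1143 CPM. The 19 synthetases summed to 1123 ± 235, 3421 ± 609 and 3466 ± 1355 CPM. In each class the lowest stimulated library exceeded the highest unstimulated one, as 1933 CPM in YFP+ m3 against 1263 CPM in unstimulated f2 shows for the synthetases. Leaving the rRNA-like features out of the library totals moved the median of all genes from 0.14 to -0.05 in YFP- and from -0.03 to -0.21 in YFP+. Under that scaling 36 of the 41 genes were still called higher in each stimulated group.

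**Figure D1:**
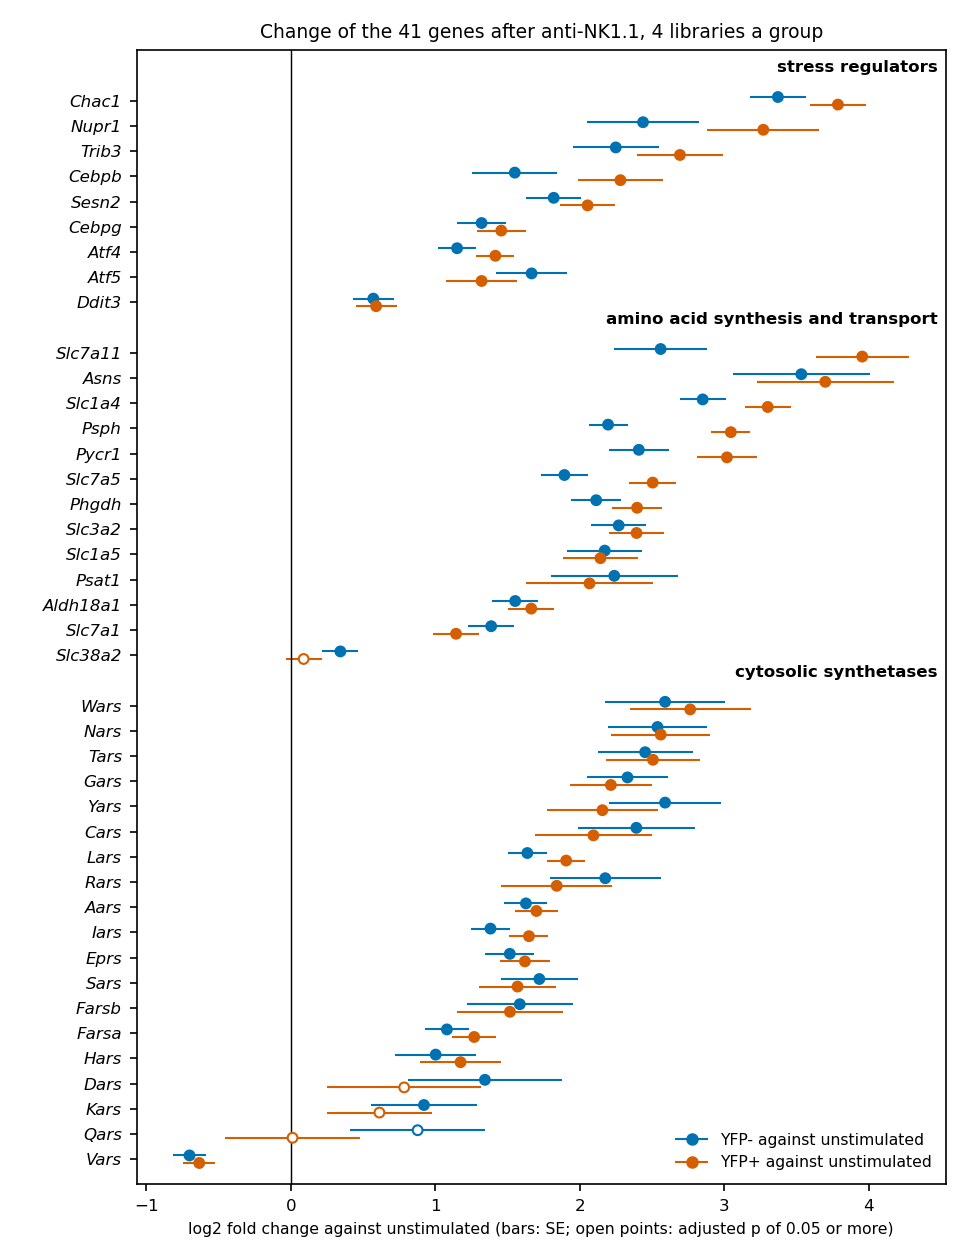
Log2 fold change against unstimulated libraries for the 41 genes, by class, in YFP- (blue) and YFP+ (orange), with 4 libraries a group and SE bars, where open points have a limma adjusted p of 0.05 or more. All points except Vars, at -0.70 and -0.63, lie at or above 0, with Chac1, Asns and Slc7a11 among the farthest right.

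The short sequence TGATGNAA, an often used form of the element that ATF4 binds with C/EBP partners, was searched on both strands (TTNCATCA on the other) in windows from 250 bases before to 50 bases after RefSeq starts, on GRCm38.p6. A window was at hand for 32 of the 41 genes, and 12 of those 32 (37.5%) held a match, as did 2.72% of 8704 genes tested and 4.51% of all 27025 genes with a window. The 12 were Trib3, Chac1, Nupr1, Asns, Pycr1, Slc7a11, Slc1a4, Aars, Gars, Iars, Tars and Yars. A match is a run of letters and not a shown binding site. The list was drawn up around ATF4 targets, so a larger share with this sequence can follow from the choice of genes. The stretches around the matches of Trib3, Slc1a4, Aars, Iars and Yars reached past the RefSeq start and are not shown. The other 7 genes rose by at least 2.22 in log2 in both stimulated groups. The stretch around the match of each of these 7 is printed below, read 5′ to 3′ along the strand of the gene, with the match in capitals.
Chac1, chr2:119351023-119351082, plus strand: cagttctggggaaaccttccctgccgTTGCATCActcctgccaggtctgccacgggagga
Nupr1, chr7:126625562-126625591, minus strand: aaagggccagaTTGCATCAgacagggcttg
Asns, chr6:7693214-7693243, minus strand: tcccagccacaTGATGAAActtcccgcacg
Slc7a11, chr3:50443636-50443695, minus strand: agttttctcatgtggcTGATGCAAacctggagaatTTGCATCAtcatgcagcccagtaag
Pycr1, chr11:120643818-120643877, minus strand: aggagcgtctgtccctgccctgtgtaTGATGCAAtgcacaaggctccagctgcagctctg
Tars, chr15:11399659-11399688, minus strand: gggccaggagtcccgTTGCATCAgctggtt
Gars, chr6:55037941-55038000, plus strand: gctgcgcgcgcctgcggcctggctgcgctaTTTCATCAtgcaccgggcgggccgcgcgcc

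Slc7a11 held a match on each strand within these bases, with first bases 66 and 47 bases before its start. The match of Asns began 23 bases before its start, that of Tars 15, that of Gars 30, that of Pycr1 103, that of Nupr1 110 and that of Chac1 193. All these distances are to RefSeq starts, which can differ from the GENCODE gene positions given elsewhere in this text. By the GENCODE positions, the stretches of Asns and Nupr1 lie inside the gene and that of Tars reaches into it. The median log2 change of the 12 genes with a match was 2.45 in YFP- and 2.86 in YFP+, and that of the 20 genes with a window and no match was 1.53 and 1.49. These medians are a description, and no test was made of them. A gene without a match can still hold one outside the window or in another form.

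All 9 stress regulators rose in both stimulated groups, with no overlap between stimulated and unstimulated values for any of them. Chac1, an enzyme that breaks down glutathione, was at 8.97, 9.50, 10.2 and 6.81 CPM in unstimulated, 108, 94.5, 68.9 and 97.1 CPM in YFP- and 151, 119, 88.3 and 137 CPM in YFP+ libraries. Its lowest stimulated library was thus well above every unstimulated one, and the rise was 10.4-fold in YFP- (log2 change 3.37, SE 0.19, limma adjusted p = 3.7e-08) and 13.8-fold in YFP+ (log2 change 3.79, SE 0.19, limma adjusted p = 4.13e-09). Chac1 lies on GRCm38 chromosome 2 from 119351229 to 119354381, on the plus strand.

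Nupr1, a small nuclear stress protein, was scarce before stimulation, at 0.551, 1.18, 1.26 and 0.277 CPM. It reached 4.81, 3.59, 3.57 and 3.43 CPM in YFP- and 8.52, 6.73, 5.25 and 7.09 CPM in YFP+ libraries. The 3 groups did not overlap, with log2 changes of 2.44 in YFP- (SE 0.39, limma adjusted p = 0.00017) and 3.27 in YFP+ (SE 0.39, limma adjusted p = 6.96e-06). Trib3, a pseudokinase that restrains ATF4 activity, was at 30.9, 40.2, 38.4 and 19.5 CPM in unstimulated, 165, 144, 113 and 176 CPM in YFP- and 299.5, 235, 105 and 221 CPM in YFP+ libraries. Its stimulated values all exceeded the unstimulated ones, while YFP+ m3, at 105 CPM, lay below all 4 YFP- libraries. The log2 change of Trib3 was 2.25 in YFP- and 2.69 in YFP+ (SE 0.30 each, limma adjusted p = 4.05e-05 and 3.81e-06).

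Atf4 itself (GRCm38 chromosome 15, 80255184 to 80257541, plus strand) stood at 143, 169, 164 and 132 CPM in unstimulated, 361, 360, 286 and 342 CPM in YFP- and 488, 418, 371 and 351 CPM in YFP+ libraries. Stimulated and unstimulated values did not overlap, and the rise was 2.22-fold in YFP- and 2.67-fold in YFP+ (SE 0.13 in log2 each, limma adjusted p = 1.13e-05 and 7.15e-07). Its mRNA rose less than those of Chac1, Nupr1 and Trib3 in each group. Protein and phosphorylated eIF2 were not measured. The related factor Atf5 rose by 1.67 in YFP- and 1.32 in YFP+ on the log2 scale. Cebpg and Cebpb, C/EBP factors that can pair with ATF4, rose by 1.32 and 1.55 in YFP- and by 1.46 and 2.28 in YFP+. Sesn2, a sestrin that restrains mTORC1 when leucine is short, rose by 1.82 and 2.06.

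Ddit3, which encodes CHOP, a C/EBP family factor induced by prolonged stress, had the smallest change of the 9. It was at 20.3, 20.8, 18.5 and 21.0 CPM in unstimulated, 35.6, 30.7, 25.1 and 29.1 CPM in YFP- and 35.5, 30.5, 25.0 and 31.1 CPM in YFP+ libraries. Both stimulated groups lay above the unstimulated one, by 1.49-fold and 1.51-fold (limma adjusted p = 0.00422 and 0.00245).

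All 6 genes of amino acid synthesis rose in both stimulated groups. Asns, which makes asparagine from aspartate, was at 61.2, 69.0, 69.9 and 16.2 CPM in unstimulated, 569, 600, 485 and 522 CPM in YFP- and 972, 872, 234 and 692 CPM in YFP+ libraries. Stimulated values exceeded unstimulated ones throughout, but unstimulated m4 and YFP+ m3 lay far below the other libraries of their groups. The rise was 11.6-fold in YFP- (log2 change 3.53, SE 0.47, limma adjusted p = 4.37e-05) and 13.0-fold in YFP+ (log2 change 3.70, SE 0.47, limma adjusted p = 1.44e-05). Over fits that left out a replicate label or a single library, the log2 change of Asns ran from 3.03 to 3.78 in YFP- and from 3.13 to 4.35 in YFP+. Asns lies on GRCm38 chromosome 6 from 7675169 to 7693254, on the minus strand.

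The 3 enzymes that make serine from a glycolytic intermediate, Phgdh, Psat1 and Psph, rose together. Phgdh, which catalyses the first step, was the most abundant of the 41 genes per kilobase of exon in each group. It was at 294, 276, 321 and 197 CPM in unstimulated, 1143, 1206, 1024 and 1279 CPM in YFP- and 1809, 1537, 1067 and 1335 CPM in YFP+ libraries, with log2 changes of 2.11 and 2.40 (limma adjusted p = 6.8e-07 and 7.06e-08). Psat1, the second enzyme, had log2 changes of 2.24 and 2.07 with an SE of 0.44, since unstimulated m4, at 34.8 CPM against 123 to 129 CPM, and YFP+ m3, at 160 CPM against 401 to 607 CPM, lay apart. Psph, the last enzyme, rose from 57.1, 52.9, 56.9 and 44.1 CPM to 247, 225, 209 and 289 CPM in YFP- and 465, 459, 363 and 458 CPM in YFP+ libraries. Its 3 groups did not overlap, and the log2 changes were 2.20 and 3.05 (SE 0.13, limma adjusted p = 5.66e-08 and 1.36e-09). Of the enzymes that make proline, Pycr1 rose from 4.41 to 5.87 CPM to 21.1 to 34.0 CPM in YFP- and 31.3 to 62.1 CPM in YFP+ libraries (log2 changes 2.41 and 3.02), and Aldh18a1 rose by 1.55 and 1.67.

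Of the 7 transporter genes, 7 rose in YFP- and 6 in YFP+. Slc7a11, the light chain of the cystine and glutamate exchanger, was at 1.18, 0.526, 0.527 and 0.37 CPM in unstimulated, 3.34, 3.81, 2.97 and 4.18 CPM in YFP- and 13.1, 11.5, 6.63 and 7.65 CPM in YFP+ libraries. No value of 1 group fell within the range of another. The rise was 5.90-fold in YFP- (log2 change 2.56, SE 0.32, limma adjusted p = 2.71e-05) and 15.5-fold in YFP+ (log2 change 3.96, SE 0.32, limma adjusted p = 2.23e-07). Slc1a4, which carries alanine, serine and cysteine, was at 2.68, 2.84, 3.92 and 2.62 CPM in unstimulated, 23.5, 23.3, 19.7 and 19.9 CPM in YFP- and 35.1, 29.9, 25.8 and 27.6 CPM in YFP+ libraries. Its groups were again separate, with log2 changes of 2.85 and 3.30 (SE 0.16, limma adjusted p = 3.01e-08 and 2.58e-09).

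Slc7a5, the light chain of the large neutral amino acid transporter, was at 74.5, 74.5, 83.3 and 54.1 CPM in unstimulated, 303, 235, 260 and 258 CPM in YFP- and 331, 350, 447 and 502 CPM in YFP+ libraries. The groups did not overlap, and the log2 changes were 1.89 and 2.51 (SE 0.16). Slc3a2, the heavy chain that Slc7a5 and Slc7a11 share, changed by 2.27 in YFP- and 2.39 in YFP+, and Slc1a5, a glutamine carrier, by 2.17 and 2.14. Slc7a1, which carries arginine and lysine, changed by 1.39 and 1.14. All of these were called in limma.

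Slc38a2, which carries small neutral amino acids and is itself known to respond to amino acid shortage, was the exception. It was at 45.7, 47.1, 56.9 and 54.7 CPM in unstimulated, 65.5, 71.4, 54.6 and 67.9 CPM in YFP- and 49.8, 52.5, 54.9 and 59.8 CPM in YFP+ libraries, and stimulated and unstimulated values overlapped in both comparisons. The log2 change was 0.34 in YFP- (SE 0.12, limma adjusted p = 0.0332) and 0.09 in YFP+ (SE 0.12, limma adjusted p = 0.556). The call in YFP- was lost when rRNA-like features left the totals (0.16, limma adjusted p = 0.316), with quantile normalization (0.11, limma adjusted p = 0.527), and without any of unstimulated f2 and m2 or YFP- f2, m2 and m4 (log2 changes of 0.29 to 0.34).

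Among the 19 synthetases, 17 rose in YFP- and 15 in YFP+. Wars, for tryptophan, was at 27.6, 23.4, 30.6 and 15.9 CPM in unstimulated, 137, 215, 78.4 and 179.7 CPM in YFP- and 338, 228, 79.3 and 110 CPM in YFP+ libraries. The groups separated stimulated from unstimulated cells, with rises of 6.03-fold in YFP- (log2 change 2.59, SE 0.42, limma adjusted p = 0.000193) and 6.80-fold in YFP+ (log2 change 2.77, SE 0.42, limma adjusted p = 6.29e-05). Yars, for tyrosine, was at 26.7, 27.7, 29.4 and 19.1 CPM in unstimulated, 163, 185, 102 and 179 CPM in YFP- and 224, 187, 52.8 and 74.6 CPM in YFP+ libraries. Its YFP+ values fell into a high pair, f2 and m2, and a low pair, m3 and m4, all above the unstimulated ones, and its log2 changes were 2.59 and 2.16 (SE 0.39, limma adjusted p = 9.98e-05 and 0.000263).

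Nars, for asparagine, was at 80.5, 93.9, 81.9 and 44.3 CPM in unstimulated, 413, 577, 291 and 452 CPM in YFP- and 754, 595, 249 and 298 CPM in YFP+ libraries. The changes were 2.54 and 2.56 in log2 (SE 0.34, limma adjusted p = 4.57e-05 and 2.11e-05), without overlap. Tars, for threonine, was at 23.5, 24.7, 26.0 and 17 CPM in unstimulated, 101, 235, 79.8 and 123 CPM in YFP- and 229, 131, 87.8 and 102 CPM in YFP+ libraries. All 8 stimulated values lay above the unstimulated ones, by 2.45 and 2.51 in log2 (SE 0.33, limma adjusted p = 4.29e-05 and 1.74e-05). Next came Cars, Gars and Rars, for cysteine, glycine and arginine, with changes of 2.39, 2.33 and 2.18 in YFP- and 2.10, 2.22 and 1.84 in YFP+. Sars, Lars, Aars, Farsb, Eprs, Iars, Farsa and Hars, for serine, leucine, alanine, phenylalanine (the β and α chains Farsb and Farsa), glutamate with proline, isoleucine and histidine, had changes of 1.0 to 1.72 in YFP- and 1.18 to 1.91 in YFP+.

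Vars, for valine, fell in both stimulated groups. It was at 122, 118, 129 and 109 CPM in unstimulated, 84.9, 75.5, 67.4 and 66.9 CPM in YFP- and 70.4, 76.3, 80.5 and 80.6 CPM in YFP+ libraries. Stimulated values all lay below unstimulated ones, with log2 changes of -0.70 in YFP- and -0.63 in YFP+ (SE 0.11, limma adjusted p = 0.000184 and 0.000245). Vars was the single one of the 41 genes called lower, in the main analysis and in each alternative run. It lies on GRCm38 chromosome 17 from 35000987 to 35016322, on the plus strand.

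Qars, Dars and Kars, for glutamine, aspartate and lysine, varied within groups, and their calls changed with the fit. Qars was at 96.9, 73.8, 59.1 and 34.1 CPM in unstimulated, 117, 142, 96.1 and 103 CPM in YFP- and 135, 112, 23.4 and 42.3 CPM in YFP+ libraries, so YFP+ m3 and unstimulated m4 were the lowest of all. Its log2 change was 0.88 in YFP- (SE 0.47, limma adjusted p = 0.133) and 0.01 in YFP+ (SE 0.47, limma adjusted p = 0.985), and the same YFP- change of 0.88 was called in the fit of only the 8 libraries compared (limma adjusted p = 0.00885), with the replicate block (limma adjusted p = 0.0359) and without the YFP+ library m3 (limma adjusted p = 0.0467). Dars was at 36.1, 36.4, 33.4 and 25.5 CPM in unstimulated, 68.5, 133, 41.7 and 122 CPM in YFP- and 148, 104, 25.3 and 25.4 CPM in YFP+ libraries. Its YFP+ libraries m3 and m4 were at or below the unstimulated range and f2 and m2 well above it, with log2 changes of 1.34 (SE 0.53, limma adjusted p = 0.049) and 0.79 (SE 0.53, limma adjusted p = 0.219). Kars was at 137, 128, 122 and 50.0 CPM in unstimulated, 195, 216, 165 and 197 CPM in YFP- and 244, 209.6, 71.2 and 159.8 CPM in YFP+ libraries, with log2 changes of 0.92 (SE 0.36, limma adjusted p = 0.0483) and 0.61 (SE 0.36, limma adjusted p = 0.161). Unstimulated m4 and YFP+ m3 were the low libraries of Kars.

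The YFP- calls of Dars and Kars, just inside the threshold, were lost under several alternatives. With all libraries kept, that of Dars was lost with trimmed-mean (TMM) scaling, with voom weights and without rRNA-like features (log2 changes of 1.16 to 1.33, limma adjusted p of 0.0532 to 0.054) and with no filter on low values (1.34, limma adjusted p = 0.318). That of Kars was lost with TMM scaling, with quantile normalization and without rRNA-like features (log2 changes of 0.68 to 0.90, limma adjusted p of 0.0516 to 0.0668) and with no filter (0.92, limma adjusted p = 0.311). The call of Dars was also lost without any of the 4 unstimulated libraries or YFP- f2, m2 and m4 (log2 changes of 1.12 to 1.43, limma adjusted p of 0.0669 to 0.131). For Kars the call was lost without unstimulated m2, m3 or m4, any YFP- library or YFP+ m4 (log2 changes of 0.58 to 1.03, limma adjusted p of 0.0512 to 0.156). Without YFP+ m3 the change of Kars in YFP+ was called, at 0.99 (limma adjusted p = 0.00818).

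**Figure D2:**
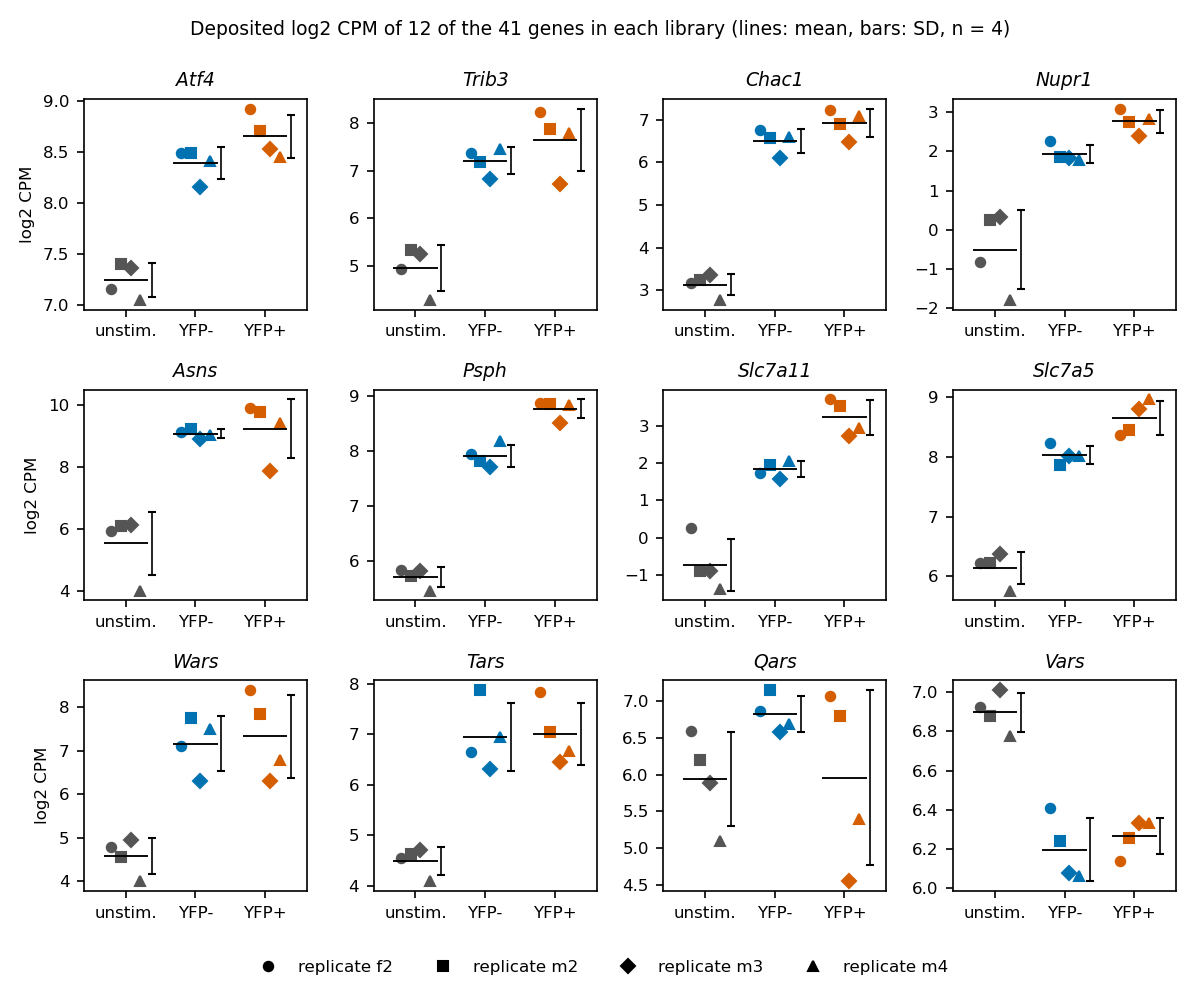
Deposited log2 CPM of 12 of the 41 genes in each of the 12 libraries, with 1 marker shape per replicate label, lines at the group means and SD bars (n = 4). Chac1 and Asns rise to well above the unstimulated libraries, Vars falls, and Qars overlaps between groups, with YFP+ m3 lowest.

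Synthetases varied more between YFP+ libraries than the other classes did. The SD of log2 CPM across the 4 YFP+ libraries exceeded 0.5 for 13 of 19 synthetases, 3 of 13 genes of amino acid synthesis and transport and 2 of 9 stress regulators, and for 29.5% of all genes tested. The median SD of the synthetases was 0.66 there, against 0.24 in YFP- and 0.33 in unstimulated libraries. Dars had the largest SD, 1.34, while Lars, Aars, Iars, Eprs, Farsa and Vars were the 6 synthetases at 0.5 or below. In YFP+ m3 the median synthetase differed by -1.19 from the mean of the other 3 libraries in log2, and in f2 by 0.84. In m4 this median was -0.28 for the synthetases, 0.18 for the stress regulators and 0.01 for amino acid synthesis and transport. These spreads were described and not tested between classes, and the part of rRNA-like reads or RNA quality in them was not tested.

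**Figure D3:**
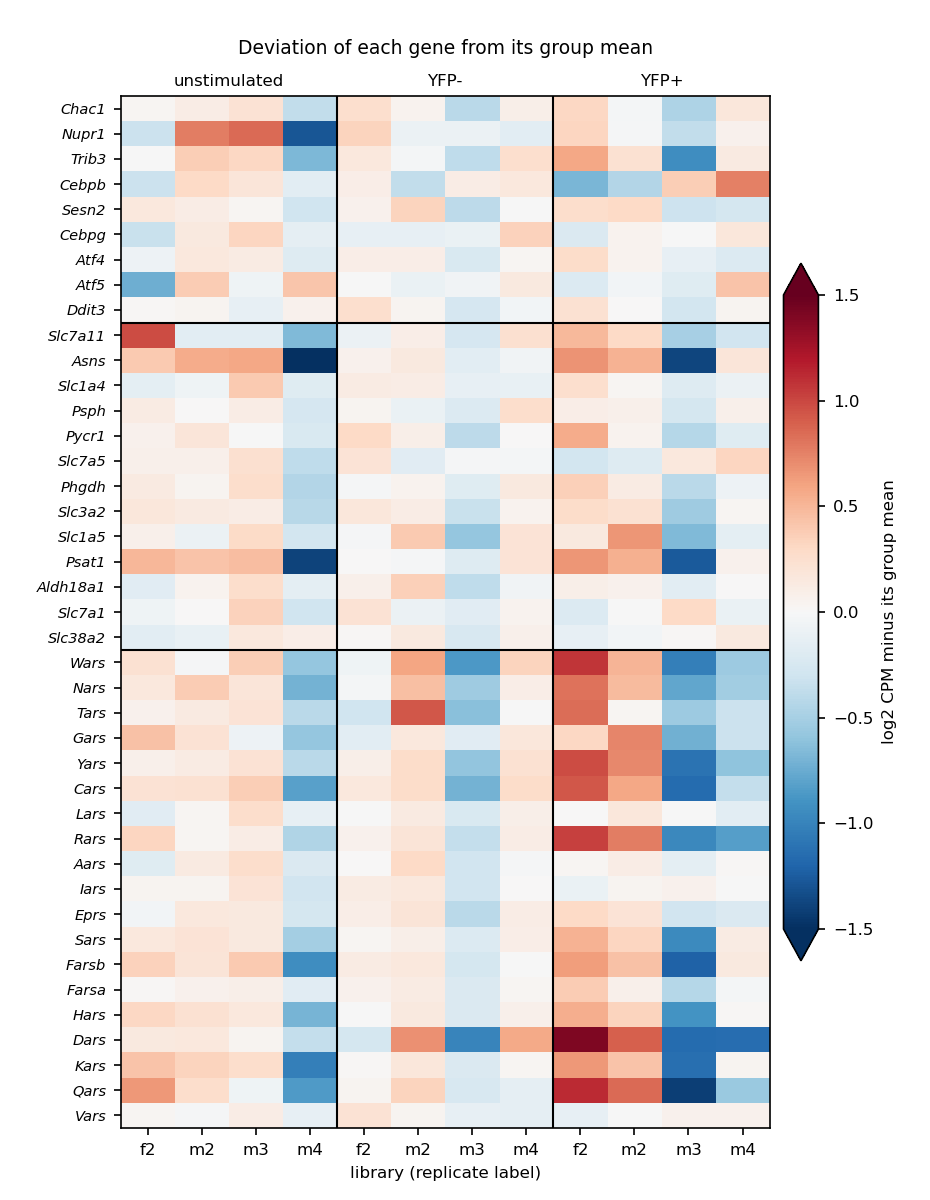
Log2 CPM minus its group mean for each of the 41 genes (rows, by class) in each of the 12 libraries (columns), from below (blue) to above (red) the mean, with colours ending at 1.5. Unstimulated m4, YFP- m3 and YFP+ m3 are mostly blue. Most synthetases in YFP+ lie above the mean in f2 and m2 and below it in m3 (17 of 19) and m4 (13 of 19).

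Between the stimulated fractions few of the 41 genes differed past the threshold. In YFP+ against YFP- libraries 4 were called higher, 0 of the 41 lower, and 37 were not called by limma, where 3.28% of all genes tested were called higher and 18.5% lower. At an unadjusted p under 0.05, 6 were higher and 0 lower in limma, and 16 were higher and 0 lower with voom weights. The 4 were Slc7a11, Psph, Slc7a5 and Pycr1, all of amino acid synthesis and transport. Slc7a11 was 2.63-fold higher in YFP+ (log2 change 1.40, SE 0.32, limma adjusted p = 0.00737), and its YFP+ values, 6.63 to 13.1 CPM, all lay above its YFP- values, 2.97 to 4.18 CPM. Psph was 1.80-fold higher (log2 change 0.85, SE 0.13, limma adjusted p = 0.000613), with 363 to 465 CPM against 209 to 289 CPM. Slc7a5 was 1.53-fold higher (log2 change 0.61, SE 0.16, limma adjusted p = 0.0161), with 331 to 502 CPM against 235 to 303 CPM. Pycr1 was 1.53-fold higher (log2 change 0.61, SE 0.21, limma adjusted p = 0.04996), but its values overlapped, at 31.3 to 62.1 CPM against 21.1 to 34.0 CPM. All 4 were higher in YFP+ within each of the 4 replicate labels.

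Of these, Psph was called in each of the alternatives run. Slc7a11 lost its call without replicate m2 in all groups (1.33, limma adjusted p = 0.0607) and with no filter on low values (1.40, limma adjusted p = 0.0684). Slc7a5 lost it with no filter (0.61, limma adjusted p = 0.11), without replicate m2, m3 or m4 in all groups (0.49 to 0.62, limma adjusted p of 0.0638 to 0.0708), and without YFP- m2 (0.56, limma adjusted p = 0.0526) or YFP+ m4 (0.50, limma adjusted p = 0.0563). Pycr1, just inside the threshold, lost it in the fit of only the 8 libraries compared (0.61, limma adjusted p = 0.1), with no filter (0.61, limma adjusted p = 0.249) and without any 1 of the 4 replicate labels in all groups (0.52 to 0.67, limma adjusted p of 0.0605 to 0.163). It also lost it without any 1 of the unstimulated libraries, YFP- m2, m3 or m4, or YFP+ f2, m2 or m4 (0.42 to 0.67, limma adjusted p of 0.0541 to 0.123).

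The count moved with 2 libraries and with the scaling. Without unstimulated m4 and YFP+ m3, an alternative chosen after seeing the data, 10 of the 41 genes were called higher in YFP+, the same 4 and Trib3 (0.76), Chac1 (0.57), Nupr1 (0.96), Asns (0.63), Phgdh (0.42) and Hars (0.47), with limma adjusted p of 0.00466 to 0.0312. Leaving out YFP+ m3 alone gave 6, with Chac1 (0.57, limma adjusted p = 0.0394) and Trib3 (0.76, limma adjusted p = 0.0357) added. Nupr1 was called without unstimulated m4 (0.83, limma adjusted p = 0.0429), Cebpb without YFP+ f2 (0.96, limma adjusted p = 0.0234) and Slc1a4 without unstimulated m3 (0.45, limma adjusted p = 0.0385). Over fits that left out a replicate label or a single library the count ran from 1 (without m2) to 6. The median of all genes in this comparison was -0.19 as deposited, -0.04 after TMM scaling and 0.06 after quantile normalization, with 10 and 11 of the 41 genes called higher under the last 2. Relative to that median the 41 genes lay 0.30 higher as deposited, at a median log2 change of 0.11. Calls over all genes were 15.1% higher rather than lower as deposited, 37.8% with TMM scaling, 44.9% with quantile normalization and 41.3% with voom weights.

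By class, the median log2 change of YFP+ against YFP- was 0.27 for the stress regulators, 0.17 for amino acid synthesis and transport and 0.02 for the synthetases, whose median turned negative, to as low as -0.26, in some fits that left out a label or a library. None of the 9 stress regulators was called in limma on the deposited scale with all libraries (1, Cebpb, at an unadjusted p under 0.05), with Nupr1 at 0.83 (SE 0.39, limma adjusted p = 0.146), Cebpb at 0.73 (SE 0.29, limma adjusted p = 0.0939), Trib3 at 0.44 and Atf4 at 0.27 (SE 0.13, limma adjusted p = 0.171). Under the other scalings some were called. With TMM scaling these were Atf4 (0.42), Cebpb (0.88) and Chac1 (0.57), with limma adjusted p of 0.0292 to 0.0411, and voom weights, which also use TMM, added Nupr1 (0.996). With quantile normalization Atf4 (0.32), Cebpb (1.03), Chac1 (0.48), Sesn2 (0.40) and Nupr1 (1.12) were called (limma adjusted p of 0.0159 to 0.0408), and Nupr1 was also called in the fit of only the 8 libraries (0.83, limma adjusted p = 0.02) and with a pseudocount of 1 CPM (0.70, limma adjusted p = 0.0204). Slc1a4 came closest among the transporters that were not called, at 0.45 (SE 0.16, limma adjusted p = 0.0599), with YFP+ values of 25.8 to 35.1 CPM above its YFP- values of 19.7 to 23.5 CPM. It was called with a pseudocount of 1 CPM, quantile normalization, TMM scaling, voom weights and rRNA-like features left out (0.43 to 0.63, limma adjusted p of 0.00524 to 0.044). None of the 19 synthetases was called in limma on the deposited scale with all libraries (0 at an unadjusted p under 0.05), and their log2 changes ran from -0.87 for Qars (SE 0.47) to 0.27 for Lars and Iars (SE 0.13 each). Lars and Iars were called with TMM scaling (0.42 each, limma adjusted p = 0.0178 and 0.016) and with voom weights, and Lars with quantile normalization (0.37, limma adjusted p = 0.0386). With an SE of up to 0.53 (Dars), differences of that size between the fractions could not be shown for the synthetases that varied most.

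**Figure D4:**
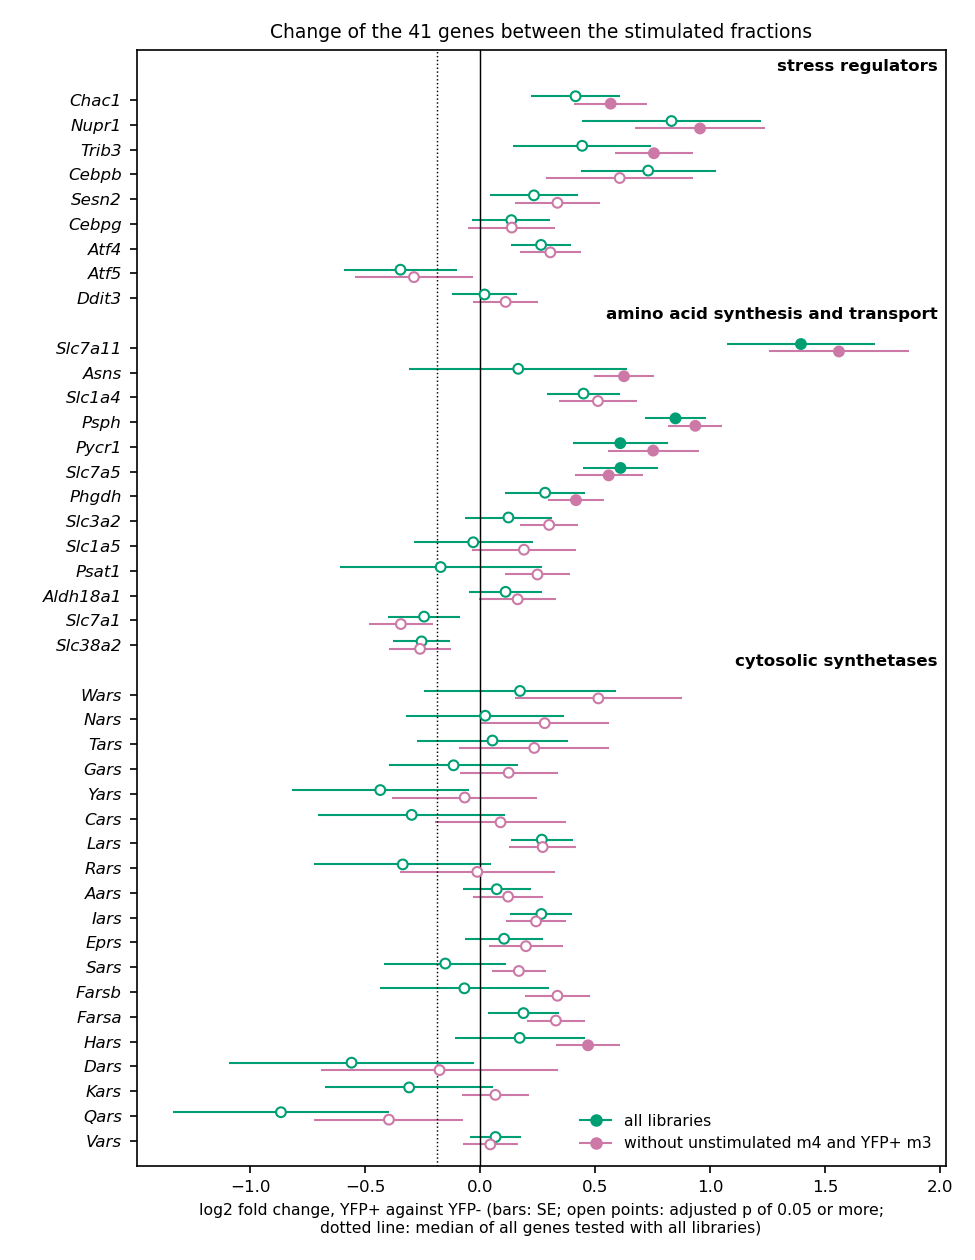
Log2 fold change of YFP+ against YFP- libraries for the 41 genes, by class, with all libraries (green) and without unstimulated m4 and YFP+ m3 (pink), with SE bars, open points at a limma adjusted p of 0.05 or more, and a dotted line at the median of all genes, -0.19. Filled points number 4 with all libraries and 10 without the pair, and Asns moves from 0.17 to 0.63.

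Levels per kilobase of merged exon, which allow genes to be set side by side, spanned a wide range. In YFP+ libraries Phgdh averaged 578 CPM per kilobase, followed by Asns at 253, Slc3a2 at 239, Atf4 at 173 and Slc7a5 at 110 CPM per kilobase. The lowest were Slc7a11 at 0.698, Atf5 at 2.63 and Nupr1 at 2.74 CPM per kilobase. Before stimulation Phgdh led at 109 CPM per kilobase, with Atf4 at 64.4 next, and Asns was at 19.8.

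Genes of the wider pathway, from lists drawn up for this description with earlier results of these data known, changed in both directions. Of 20 genes of the machinery around eIF2, 15 were higher and 1 lower in YFP- against unstimulated libraries, and 15 higher and 2 lower in YFP+. For these and the lists below, the shares of all genes called were 30.2% higher and 20.9% lower in YFP-, and 27.5% higher and 33.3% lower in YFP+. For YFP+ against YFP- libraries these shares were 3.28% higher and 18.5% lower. Atf3, a factor downstream of ATF4, changed by 6.18 and 6.66 in log2, from a mean of 1.75 CPM to 130 and 192 CPM (limma adjusted p = 2.2e-08 and 3.28e-09). Hspa5, the main chaperone of the endoplasmic reticulum, rose by 2.19 and 2.79 and Eif2b3, a subunit of the exchange factor of eIF2, by 2.15 and 2.59. Eif2ak3, which encodes the eIF2 kinase PERK, fell by 1.72 in YFP- and by 1.43 in YFP+. In YFP+ against YFP- libraries the kinase gene Eif2ak2 was lower, at -1.07 (SE 0.20, limma adjusted p = 0.00173), Impact was higher, at 0.66, and 18 of the 20 were not called.

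Of 24 tested genes among other ATF4-linked ones, 17 were higher and 3 lower in YFP- and 19 higher and 3 lower in YFP+ against unstimulated libraries. Cth, which makes cysteine from cystathionine, averaged 0.258, 8.67 and 28.9 CPM in unstimulated, YFP- and YFP+ libraries, with log2 changes of 5.39 and 7.08 that rest on 2 to 24 reads per unstimulated library. Slc6a9, a glycine transporter, averaged 0.174, 7.15 and 13.7 CPM (5.27 and 6.23 in log2, from 4 to 10 unstimulated reads). Slc7a3, an arginine and lysine transporter, changed by 4.21 and 5.0. Ddit4, a stress-induced inhibitor of mTORC1 that also responds to low oxygen and glucocorticoids, was lower, at -1.57 and -1.84. Between the stimulated fractions 7 of the 24 were higher in YFP+ and 1 lower, led by Aldh1l2, an enzyme of mitochondrial folate metabolism, at 1.81 (SE 0.38, limma adjusted p = 0.00442) and Cth at 1.70 (SE 0.49, limma adjusted p = 0.0235).

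The 16 tested mitochondrial synthetases had smaller median changes than the cytosolic ones. Of these, 9 were higher and 0 lower in YFP- in limma, with a median log2 change of 0.84. Cars2 was lower there at an unadjusted p under 0.05, and was called with voom weights. In YFP+ 6 were higher and 3 (Cars2, Pars2 and Vars2) lower in limma, with a median of 0.53. These YFP+ counts lay nearer the shares of all genes against unstimulated libraries than the YFP- ones. This did not hold with voom weights, where 10 were higher and 1 (Vars2) lower in YFP+, and 9 and 1 in YFP-. Over all genes, voom weights called 4059 higher and 3727 lower in YFP+, and 3720 and 2926 in YFP-. The cytosolic synthetases had medians of 1.63 and 1.65, and the difference between the lists was not tested. Nars2 rose by 1.78 and 1.62. Among 9 partners of the synthetases, 7 were higher and 1 lower in YFP-, and 7 higher and 2 lower in YFP+. Mars1, the cytosolic methionine enzyme, rose by 2.35 and 2.15, Eef1e1, a scaffold of the synthetase complex, by 2.14 and 2.7, and Trmt61a, which modifies tRNA, by 3.11 and 3.44. Tarsl2, a second threonine enzyme, fell by 1.59 in YFP- and by 1.96 in YFP+, opposite to Tars. Eef1e1 was the 1 partner called between the stimulated fractions, higher in YFP+ at 0.57 (SE 0.13, limma adjusted p = 0.00794).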

How the data were processed

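Libraries were prepared by the SMARTer Ultra Low method and read as paired ends on a NovaSeq, per the labels' protocols. The submitters' processing notes name bcl2fastq, STAR 2.7.9a, Subread, featureCounts 2.0.3 and GRCm38. The authors deposited moderated log2 CPM in 1 table, with 0 columns of no sample. Of 55774 lines, 287 repeated an earlier gene, leaving 55487 features. The deposited values gave whole reads for 100% of entries (tolerance 0.01). The smallest level shown, 3 reads, was 0.0553 to 0.0933 CPM, a floor that covers counting error only, since no molecular identifiers are named. How reads shared with pseudogenes, related genes or overlapping genes on the other strand were assigned is not given in the sources used here, so genes with such copies are uncertain.

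Genes with log2 CPM above 0 in at least 4 libraries were fitted over all 12 libraries, with a mean for each group, by limma 3.58.1 under R 4.3.3 (eBayes with trend), and p-values were adjusted over all 12364 genes. Log2 changes are on the deposited scale and understate changes of low genes. The script was checked on simulated counts with known changes. A count test was not run, since the unit is log2 CPM; voom weights on the recovered reads were an alternative. The rRNA-like set held 359 features, Lars2 among them, so Lars2 was not described; Cbs fell below the filter and Nupr2 was not used here. Gene positions come from GENCODE M21 on GRCm38, and promoter windows from RefSeq (GRCm38.p6); none was at hand for Slc7a5, Slc1a5, Cars, Hars, Lars, Nars, Rars, Vars and Wars. Members and lists were chosen with earlier results of these data known. Values by library were given for the called members with the largest changes in each class and those against their class; those of Atf4, Ddit3, Phgdh, Slc38a2, Qars, Dars and Kars were chosen after their values were seen. Of each other list, up to 4 called genes with the largest changes were named, and Ddit4, Cars2, Pars2, Vars2 and Eef1e1 were added where counts were small or a direction stood out. Alternatives were the replicate block, a fit of 8 libraries, other filters, a pseudocount of 1 CPM, quantile and TMM scaling, rRNA-like features left out, voom weights and leaving out libraries. Samples with the same label did not deviate together in every pair, so labels were not treated as pairs.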

Additional observations from a re-analysis of the deposited data

Results flagged for a closer look

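In 16 of 132 sets of 4 values (the 41 genes and 3 class sums in each group), 1 library lay far from the other 3, with a gap to its nearest neighbour, as a share of the whole range, past Dixon's critical value for 4 values. Chance gives about 1 in 20, or 6.6 sets. The sets are not independent, since the genes of a group share its libraries and the class sums hold the same genes. An excess over chance was therefore not tested. Unstimulated m4 was the low library in 9 of the 16. For Asns it was at 4.02 in log2 CPM against 5.94 to 6.13 (gap over range 0.909), for Psat1 at 5.12 against 6.95 to 7.01 (0.968), and for Slc3a2 at 6.87 against 7.41 to 7.46 (0.906). Among synthetases the same library was low for Cars (0.875), Farsb (0.847), Hars (0.84), Kars (0.883) and Sars (0.922), and for the sum of the synthetases, at 772 CPM against 1221 to 1263 CPM (0.916). It held the largest rRNA-like share of the 12 libraries, 35.3%, and the part of that share was not tested.

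In YFP- libraries m3 was low for Cars (6.72 against 7.58 to 7.71, 0.874), Eprs (7.33 against 7.83 to 7.93, 0.837) and the sum of amino acid synthesis and transport (3424 CPM against 4201 to 4326 CPM, 0.861). In the same group m2 was low for Cebpb (1.63 against 2.09 to 2.15, 0.884), m4 was high for Cebpg (4.89 against 4.42 to 4.44, 0.95), and f2 was high for Nupr1 (2.27 against 1.78 to 1.85, 0.864). In YFP+ libraries m3 was low for Psph (8.50 against 8.84 to 8.86, 0.937), which was still above all YFP- libraries.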

How the results depend on the processing

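Each result was recomputed under 26 alternatives, of which those that left out a single library, or unstimulated m4 and YFP+ m3 together, were chosen after seeing the data. Against unstimulated libraries, 36 of the 41 genes in YFP- and 38 in YFP+ kept their direction and side of the threshold in all 26, and the number called higher ran from 35 to 40 and from 36 to 37. Hars lost its YFP- call without label m4 (0.75, limma adjusted p = 0.0854) and with no filter (limma adjusted p = 0.093). In YFP+, Slc38a2 turned to -0.0032 with quantile normalization and -0.10 without rRNA-like features, and Qars to -0.075 and -0.18. Qars ran from -0.36 to 0.48 when labels or libraries were left out. For YFP+ against YFP-, 11 of the 41 genes held in all 26. The 4 called higher became 1 with no filter (1583 instead of 2691 genes in all), 11 with quantile normalization, 10 with TMM scaling, 11 with voom weights, 10 without unstimulated m4 and YFP+ m3, and 1 to 6 without a label or library (1571 to 3193 genes in all). Signs of values that were not called turned. With quantile normalization Slc1a5 was at 0.0074. With TMM scaling Slc1a5, Farsb, Gars and Sars were at 0.12, 0.085, 0.038 and 0.0017, and with voom weights at 0.13, 0.095, 0.050 and 0.0083. Without unstimulated m4 and YFP+ m3, Psat1, Slc1a5, Cars, Farsb, Gars, Kars and Sars were at 0.25, 0.19, 0.089, 0.34, 0.12, 0.067 and 0.17. Over fits without a label or library, Asns from -0.059 to 0.63, Hars from -0.011 to 0.47, Nars from -0.26 to 0.28, Tars from -0.32 to 0.36, Wars from -0.20 to 0.51, Psat1 from -0.39 to 0.25, Farsb from -0.28 to 0.34, Gars from -0.36 to 0.12, Sars from -0.32 to 0.17, Ddit3 from -0.065 to 0.11, Slc1a5 from -0.25 to 0.19, Dars from -1.11 to 0.010, Aldh18a1 from -0.018 to 0.23, Aars from -0.025 to 0.17, Eprs from -0.029 to 0.21, Cars from -0.61 to 0.089, Kars from -0.53 to 0.067, and the median of the synthetases from -0.26 to 0.17. The cause of these moves was not tested. When the replicate label entered the fit as a replicate block, counts for the 41 genes were 40 higher and 1 lower in YFP-, 36 and 1 in YFP+, and 4 and 0 for YFP+ against YFP-, and over all genes 6682, 7774 and 3098 called instead of 6321, 7522 and 2691. Correlations of same-label deviations ran from -0.059 to 0.1, -0.042 to 0.375 and 0.054 to 0.374 in that order, and 1, 2 and 3 of 4 samples were closest to their own label, so a correlation over 0.1 in every pair was met in no comparison and the labels were not treated as pairs. In YFP+ against YFP- it was met in m2, m3 and m4 (0.172 to 0.374) and missed in f2 (0.054). The percentage of calls that were higher moved from 59.1% to 47.1% without rRNA-like features and from 15.1% to 37.8%, 44.9% and 41.3% with TMM scaling, quantile normalization and voom weights.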

Other observations

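Several of the 41 genes were low in both unstimulated m4 and YFP+ m3, libraries that differ in group and label. Deviations of these 2 libraries from the rest of their groups had a Pearson r of 0.698 across the 41 genes and 0.335 across all 12364 genes tested, where genes are not independent replicates. Against the mean of the other 3 libraries of the group, Asns differed by -2.04 and -1.84 in log2, Psat1 by -1.86 and -1.68, Kars by -1.36 and -1.5, Farsb by -1.25 and -1.62 and Qars by -1.14 and -1.88. Vars, at -0.16 and 0.09, and Slc38a2, at 0.14 and 0.03, were not low in either. Between YFP- m3 and YFP+ m4 the r was 0.747 across the 41 genes and 0.168 across all genes. These were the highest r across the 41 genes among all pairs of libraries from different groups. Pairs with the same label ran from -0.331 (m4, YFP- and YFP+) to 0.582 (f2, unstimulated and YFP+). Unstimulated m4 and YFP+ m3 share no label, nor do YFP- m3 and YFP+ m4, and what the libraries of each of these pairs share was not tested.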
